A study of Homo sapiens with 6 samples.

Results

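The SF3B complex was followed across HCT116 cells that carried an introduced PHF5A, one of its own subunits, in wild-type or mutant form. HCT116 is an established epithelial line from a human colorectal carcinoma. The WT group (3 libraries) stably expressed wild-type PHF5A, and the K29Q group (3 libraries) stably expressed PHF5A with glutamine in place of lysine 29. Both groups grew in the same serum-containing medium without a further treatment named in the labels. The sources used here do not give the promoter and tag of the construct, the state of the endogenous PHF5A gene or the number of clones behind each group. The members were the 7 rows of the deposited gene table whose symbol is PHF5A, SF3B1, SF3B2, SF3B3, SF3B4, SF3B5 or SF3B6, out of 60675 rows. All 7 passed the filter on low values (FPKM, fragments scaled to transcript length and to the mapped fragments of the library, of at least 1 in at least 3 libraries), as did 13261 genes in the table.

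SF3B is the part of the U2 snRNP that grips the intron around the branch site, where splicing starts. SF3B1 forms a curled scaffold of HEAT repeats, and together with PHF5A it makes the pocket that holds the branch adenosine and that splicing inhibitors of the pladienolide class occupy. SF3B3 and SF3B5 also sit in SAGA, a chromatin-modifying complex with acetyltransferase activity. Glutamine has no positive charge and is commonly used to imitate acetylated lysine, and the title of the series names PHF5A acetylation, so the comparison asks how cells with the imitated acetyl mark differ from cells with wild-type PHF5A.

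The changed codon lies in exon 3 of 4 coding exons of PHF5A, a gene on the minus strand of chromosome 22. The coding part spans 110 codons, 13 of them for cysteine, the residue that holds zinc in this small zinc-finger protein. It makes up 30.7% of the 1086 nt annotated transcript, stop codon included. The sources used here do not say whether the construct carried more than the coding part, and a gene total adds endogenous and introduced PHF5A RNA without showing which codon a fragment held.

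The libraries were alike in their totals. FPKM sums ran from 249034 to 253451, and low values of single-exon genes moved in steps that put the deepest library, K29Q 2, at 1.19 times the shallowest, K29Q 3. The absolute depth is unknown, since a step may stand for a fragment or for a single read. Nothing in the labels tells separate cultures from repeat preparations, so p-values here reflect only how these libraries vary, possibly for technical reasons. The column headers hold a code whose meaning the labels do not give. K29Q 1, K29Q 2 and WT 2 shared a code (called run A here), and K29Q 3, WT 1 and WT 3 shared another (run B). Summed FPKM of 9 epithelial markers was 1276 to 1446 in WT and 1176 to 1233 in K29Q, and their part in the results was not tested. Of those markers KRT19 (576 to 757) and KRT8 (299 to 397) were highest, and VIL1 was low (0.0358 to 0.181). CLDN4 varied between libraries, from 0.714 to just over 9. Among the 8 epithelial markers that passed the filter, 4 were lower in every K29Q library than in any WT library, and 0 were higher. Of all tested genes 9% were lower in this way. The log2 fold changes of the 8 ran from −0.53 to 0.059, and 0 passed the threshold (limma). Fibroblast markers summed to 4.54 to 5.47 in WT and 4.70 to 6.12 in K29Q, nearly all of it COL1A1, with DCN and LUM at 0 in all 6 libraries. Endothelial markers stayed at or below 0.379 in total, and leukocyte markers at or below 1.41, with PTPRC at most 0.00268.

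All SF3B subunits were well expressed, and their transcripts were not at equal levels. On the FPKM scale, which is per length and so allows genes to be compared, SF3B5 was highest at 114 ± 7.65 (SD over 6 libraries) and SF3B3 lowest at 20.9 ± 1.23. The median tested gene had an FPKM of 5.20. SF3B5, a small protein that packs against SF3B3, is encoded by a single exon and ranked 260 among the tested genes by mean FPKM. SF3B6 (57.4 ± 3.83) and SF3B4 (52.9 ± 2.37) followed, then PHF5A (38.6 ± 6.23), SF3B1 (34.0 ± 4.24) and SF3B2 (25.2 ± 1.39). SF3B5 was above SF3B6, SF3B4 above PHF5A, SF3B1 above SF3B2 and SF3B2 above SF3B3 in 6 of 6 libraries, with ranges that did not overlap. The remaining 2 pairs of neighbours overlapped in range. SF3B6 exceeded SF3B4 in 4 of 6 libraries, and PHF5A exceeded SF3B1 in 5 of 6, the exception being WT 1. The 3 smallest transcripts (SF3B5, SF3B6 and PHF5A, 693 to 1086 nt) were among the upper 4 levels, and the longest (SF3B3, 9720 nt) was at the bottom.

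**Figure D1:**
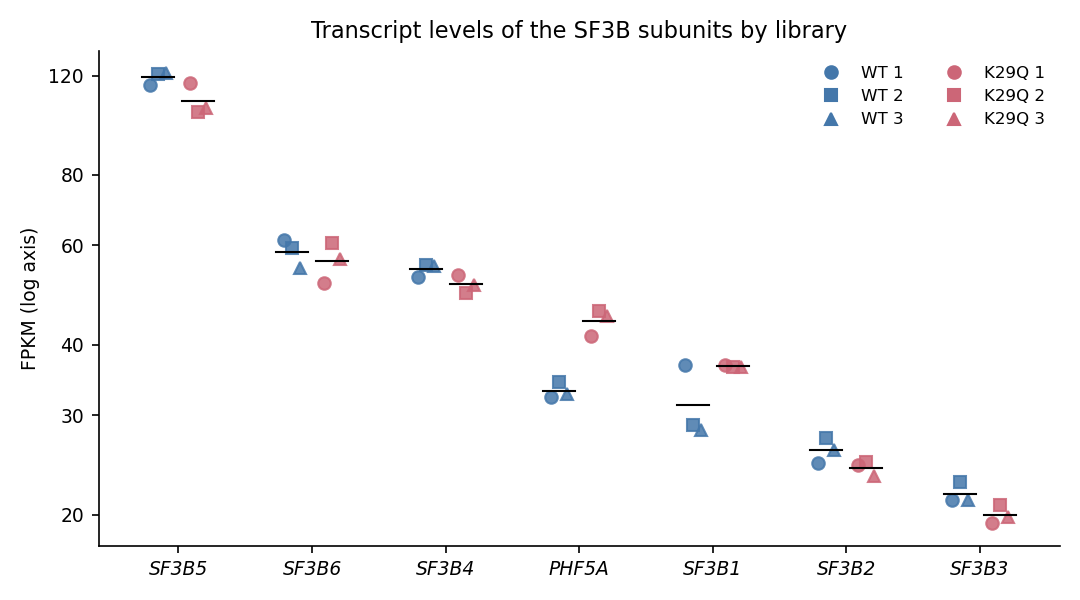
FPKM (log axis) of the 7 SF3B subunits in each library, ordered by mean level. Blue points are WT and red points K29Q, with circles, squares and triangles for libraries 1, 2 and 3 and a black line at each group mean. PHF5A is the subunit whose 3 K29Q libraries all lie clear above WT, while the SF3B1 value of WT 1 (36.9) sits among the K29Q values.

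PHF5A had higher values in all K29Q libraries than in WT, without passing the test over all genes. Its FPKM was 32.4, 34.4 and 32.7 in WT 1 to 3, and 41.4, 45.9 and 45.0 in K29Q 1 to 3. Every K29Q library lay above every WT library. The means were 33.1 ± 1.06 and 44.1 ± 2.38 (n = 3 each, SD), a ratio of 1.33. In RNA from whole cultures, fewer cells expressing a gene and less of its RNA per cell cannot be told apart. On log2(FPKM + 1) the fold change was 0.40 (95% confidence interval 0.25 to 0.55, SE 0.064). It missed the threshold when all tested genes were adjusted together (limma with Benjamini-Hochberg adjustment, adjusted p = 0.11), and a two-sided exact permutation test gave p = 0.1, the lower limit for 3 against 3 values. Of all tested genes 2.05% had a log2 fold change at least this high. It was 0.33 within run A, where WT 2 was the only WT library, and 0.46 within run B, where K29Q 3 was the only K29Q library. With the trend of each library on GC content and transcript length removed it was 0.44 and passed (limma, adjusted p = 0.0168), where 0.61% of genes passed. Adding a run term (adjusted p = 0.0675) or a replicate block (0.145) to that correction ended the call.

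SF3B1, the scaffold that holds PHF5A, was split within the WT group. Its FPKM was 36.9, 28.8 and 28.2 in WT 1 to 3 and 36.8, 36.5 and 36.6 in K29Q 1 to 3. WT 1 was the highest of all 6 libraries, and WT 2 and WT 3 were below all K29Q libraries. The K29Q values were close together, with an SD of 0.154 against 4.84 in WT. The group means were 31.3 and 36.7, a ratio of 1.17, and the log2 fold change of 0.23 (95% confidence interval −0.015 to 0.48, SE 0.10) did not pass (limma, adjusted p = 0.42; exact permutation p = 0.4). Without WT 1 the log2 fold change was 0.35 (limma, adjusted p = 0.0642). SF3B1 had the lowest GC content of the subunits (41.0%), and the slope of log2 values on GC content differed between libraries. Per 10 percentage points it was −0.042, 0.031 and 0.118 in WT 1 to 3 and 0.018, −0.056 and −0.069 in K29Q 1 to 3. After GC and length correction the SF3B1 log2 fold change was 0.10, and the WT libraries lay closer together. WT 1 went from 0.124 to 0.064 above the mean of the 6 libraries, between the K29Q libraries after correction (0.0049 to 0.082). WT 2 and WT 3 went from −0.222 and −0.250 to −0.106 and −0.111.

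**Figure D2:**
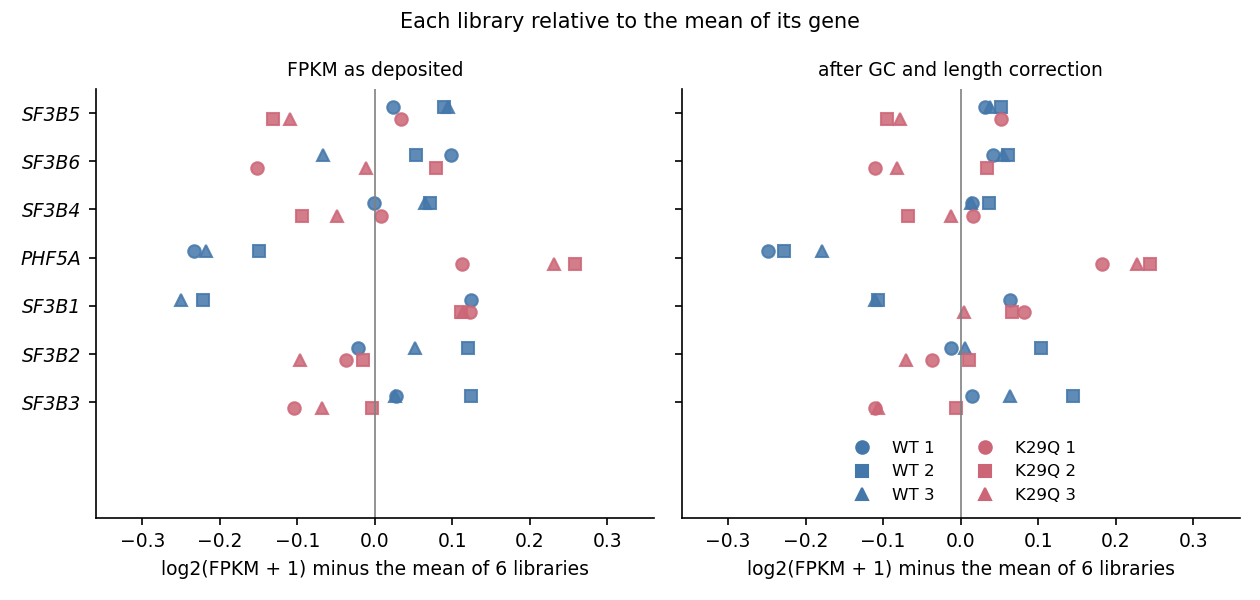
Distance of each library from its gene's mean over the 6 libraries, on log2(FPKM + 1), for the FPKM as deposited (left) and after GC and length correction (right). Colours and shapes are as for the levels. PHF5A separates the groups in both panels, and WT 1 lies with the K29Q libraries for SF3B1 in both.

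The RNA-binding subunits did not pass the test. SF3B2, which pairs with SF3B4 and crosslinks to pre-mRNA near the branch site, had FPKM of 24.7, 27.4 and 26.1 in WT 1 to 3 and 24.5, 24.8 and 23.4 in K29Q 1 to 3. The groups overlapped through WT 1 and K29Q 2, and the log2 fold change was −0.10 (limma, SE 0.063, adjusted p = 0.534). SF3B4, an RNA recognition motif protein that binds upstream of the branch site, had 52.8, 55.5 and 55.3 in WT and 53.1, 49.4 and 51.0 in K29Q. K29Q 1 was above WT 1, so these groups overlapped too, with a log2 fold change of −0.09 (SE 0.058, adjusted p = 0.542). SF3B6, the RNA recognition motif protein that contacts SF3B1 and lies near the branch adenosine, had 61.4, 59.4 and 54.6 in WT and 51.4, 60.6 and 56.8 in K29Q. Its groups were mixed on this scale. The log2 fold change was −0.056 (95% confidence interval −0.25 to 0.13, adjusted p = 0.785), and it was 0.0056 without K29Q 1, the lowest library. With quantile normalization it was −0.0098. After GC and length correction it was −0.11 (adjusted p = 0.356), and the groups no longer overlapped.

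The 2 subunits shared with SAGA had slightly lower means in K29Q, as did SF3B2, SF3B4 and SF3B6. SF3B3, a β-propeller protein related to DDB1, had FPKM of 21.3, 22.8 and 21.2 in WT 1 to 3 and 19.3, 20.8 and 19.8 in K29Q 1 to 3. The groups did not overlap, but the highest K29Q library (20.8) came close to the lowest WT library (21.2). A log2 fold change of −0.12 (95% confidence interval −0.26 to 0.028, SE 0.062) did not pass (limma, adjusted p = 0.466; exact permutation p = 0.1). SF3B5 had 115, 121 and 121 in WT and 116, 104 and 105 in K29Q. K29Q 1 lay just above WT 1, and K29Q 2 and K29Q 3 were below all WT libraries. The log2 fold change was −0.14 (95% confidence interval −0.29 to 0.017, SE 0.065, adjusted p = 0.435).

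Counted together, 0 of the 7 subunits passed the threshold in the fit of the whole table (limma), against a background of 0.0528% of tested genes. An unadjusted p under 0.05 was reached by 1 subunit, PHF5A, where 12.5% of tested genes reached it (7.65% higher and 4.89% lower). The groups did not overlap for 2 subunits, PHF5A higher and SF3B3 lower, against 17.8% of tested genes (8.8% higher and 9% lower). Above 0 lay 2 subunits (PHF5A and SF3B1) and below 0 lay 5, while over all tested genes 51% were above and 49% below. The median log2 fold change was −0.09 over the 7 subunits, and 0.0030 over all tested genes. The median of the subunits was −0.046 with quantile normalization and −0.12 with median centring. For the 5 subunits below 0 the upper ends of the intervals lay between 0.017 and 0.13, and the lower ends between −0.23 and −0.29. In this fit no difference and a small fall both lay inside them. After GC and length correction the SF3B3 interval was −0.28 to −0.023, below 0, without passing (limma, adjusted p = 0.276).

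**Figure D3:**
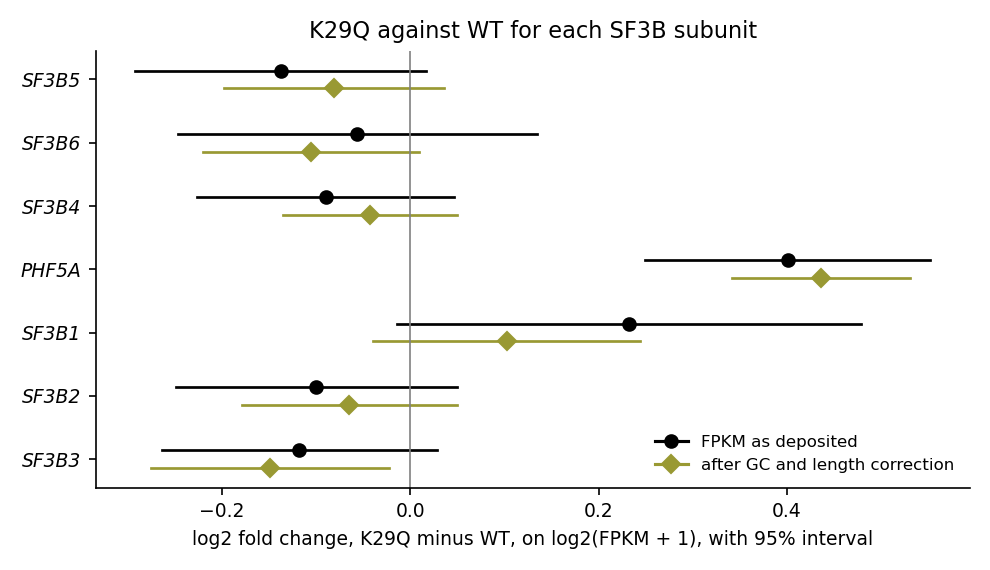
Log2 fold change of K29Q against WT with its 95% confidence interval for each subunit, from the FPKM as deposited (black circles) and after GC and length correction (olive diamonds). PHF5A (0.40 and 0.44) is the one subunit whose interval stays above 0 in both, and SF3B3 (−0.12 and −0.15) has an interval below 0 only after the correction.

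The balance between PHF5A and its partners was compared within each library, where the scaling of a library cancels. The FPKM of PHF5A divided by the geometric mean FPKM of the other 6 subunits was 0.736, 0.782 and 0.774 in WT 1 to 3 and 0.985, 1.08 and 1.08 in K29Q 1 to 3. All K29Q ratios were above all WT ratios. The difference was 0.46 on the log2 scale (exact two-sided permutation p = 0.1, the smallest possible with 3 against 3), and the geometric mean of the other 6 itself was 43.4 ± 0.963 in WT and 42.0 ± 0.421 in K29Q (n = 3 each, SD). PHF5A made up 9.62% ± 0.227 of the summed FPKM of the 7 subunits in WT and 12.9% ± 0.755 in K29Q. The sum itself was 344 ± 4.91 in WT and 341 ± 2.56 in K29Q and overlapped between the groups (exact permutation p = 0.4). Against SF3B3 the PHF5A ratio was narrow within each group, 1.51 to 1.54 in WT and 2.14 to 2.27 in K29Q. Against SF3B1 the groups overlapped, with 0.878, 1.19 and 1.16 in WT 1 to 3 and 1.12, 1.26 and 1.23 in K29Q 1 to 3 (exact permutation p = 0.3).

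**Figure D4:**
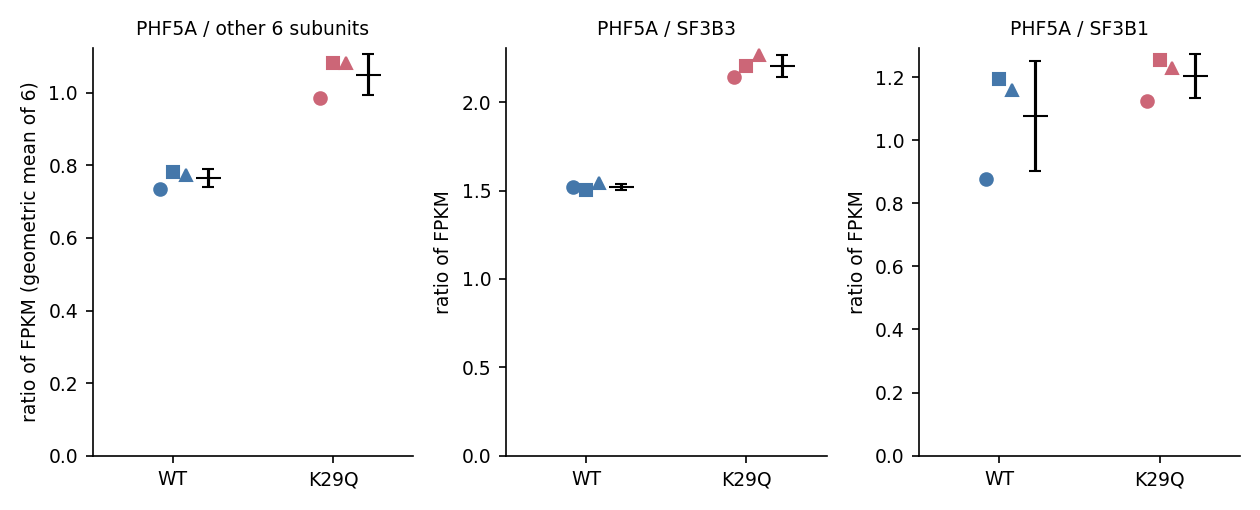
Ratio of PHF5A FPKM to the geometric mean of the other 6 subunits, to SF3B3 and to SF3B1 in each library, with the group mean and SD beside the points (n = 3 each). Blue is WT and red K29Q, with circles, squares and triangles for libraries 1, 2 and 3. The groups are apart in the first 2 panels and overlap in the panel for SF3B1.

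The genes that followed the PHF5A profile most closely were enzymes and proteins of other pathways. Among 3866 genes with a mean FPKM of at least 10, FDFT1, the squalene synthase, was nearest to PHF5A, with a root mean square difference of 0.034 between centred log2(FPKM + 1) values over the 6 libraries. HIST1H2BD, a histone gene, was next at 0.046, and FAM162A, a mitochondrial protein, followed at 0.048. Their FPKM went from 20.1 to 25.9, from 19.9 to 26.9 and from 11.3 to 15.9 between the group means of WT and K29Q. With 6 libraries many genes share such a profile, and the likeness is a description.

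Where the subunit genes lie was looked up in GENCODE 29 on GRCh38. PHF5A occupies chr22:41459717-41468725 (minus strand), SF3B1 chr2:197389784-197435091 (minus), SF3B2 chr11:66050729-66069308 (plus) and SF3B3 chr16:70523788-70577670 (plus). SF3B4 occupies chr1:149923317-149928344, SF3B5 chr6:144094881-144095573 and SF3B6 chr2:24067584-24076443, all on the minus strand. SF3B3 starts close to a gene that runs the other way. COG4, a subunit of a Golgi tethering complex, starts 223 bp from SF3B3. It had 9.51, 9.79 and 9.32 in WT and 7.81, 8.36 and 8.31 in K29Q. These values were lower in every K29Q library, as for SF3B3, where 9% of all tested genes were lower without overlap. The log2 fold change of COG4 was −0.20 (limma, SE 0.059, adjusted p = 0.345). The nearest tested starts to SF3B1, SF3B2, SF3B4, SF3B5 and SF3B6 were 8525 to 30974 bp away (COQ10B, PACS1, MTMR11, PLAGL1 and TP53I3), and their log2 fold changes ran from −0.11 to 0.11. Among them PLAGL1 was higher and TP53I3 lower without overlap, while the groups overlapped for SF3B5 and SF3B6. The processed pseudogene PHF5CP on chromosome 19, the single other row related to a subunit by name, had an FPKM of 0.539 to 0.971, so fragments assigned to it were few beside those of PHF5A.

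Promoters of 5 subunits were found among the RefSeq entries (GRCh38.p14, 250 bases before to 50 after the start), and SF3B1 had 2 entries. PHF5A and SF3B3 were not matched. The word CCGGAAG or its reverse complement CTTCCGG, the usual core of a site for ETS transcription factors, was searched after the promoters had been read. It stood in the promoters of 3 of the 5 (SF3B2, SF3B4 and SF3B6) and in 10.3% of all 35116 promoter entries, and SF3B1 and SF3B5 had none. Because the search came after that reading, the share among the subunits cannot be read as an enrichment. It also counts genes, while the share over all promoters counts entries. The site of each in the gene's own direction is shown 5′ to 3′ with the word in capitals, as the shared letters of these 3 promoters. SF3B5 and SF3B1, which lack the word, had log2 fold changes of −0.14, the lowest of the 7, and 0.23. Those of SF3B2, SF3B4 and SF3B6, which hold it, were −0.10, −0.09 and −0.056. A link between word and level was not tested.
SF3B2, chr11:66052300-66052328, plus strand: atacggcgccaCCGGAAGttccggcaagt
SF3B4, chr1:149927812-149927840, minus strand: ccgtcttcgccCCGGAAGtggaagtcgtg
SF3B6, chr2:24076468-24076496, minus strand: cggtacagagcCCGGAAGtgtcttggact
The words are centred 50, 23 and 156 bases before the RefSeq start of the promoter entry. These starts differ from the outer gene ends of GENCODE 29 given above, and by those the SF3B2 and SF3B4 words lie inside the gene. SF3B2 holds 2 such words and SF3B6 holds 3, both strands counted. A match describes the letters in this window and not the binding of a factor.

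The other proteins of the U2 snRNP lay on the same side as most SF3B subunits. SF3A holds SF3B to the U2 RNA, and SNRPA1, SNRPB2 and the Sm proteins complete the particle. Of 12 genes tested, 12 were below 0 and 0 above, where 49% of all tested genes were below. Their median log2 fold change was −0.09. None passed the threshold (limma, 0 of 12 higher or lower, and 0 at an unadjusted p under 0.05), and the groups were apart for 2, SNRPA1 and SNRPE, both lower, where 9% of all tested genes were lower without overlap. SNRPA1, which binds a hairpin of the U2 RNA, had 13.7 ± 0.504 in WT and 12.6 ± 0.251 in K29Q (n = 3 each, SD). SNRPE, an Sm ring protein, had 92.5 ± 3.12 and 87.1 ± 1.46, and SF3A1 had 24.7 ± 1.57 and 22.9 ± 0.331. The median was −0.048 with quantile normalization, −0.11 after GC and length correction and −0.13 with that correction and a run term. Without K29Q 1, 2 of the 12 were above 0, and without WT 2 or without WT 3, 1 of the 12.

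Factors that select the branch site or bring U2 to it were mixed. Of 22 genes 10 lay above 0 and 12 below, with a median of −0.02, and 0 passed (limma, 3 higher and 0 lower at an unadjusted p under 0.05). For comparison, 51% of all tested genes lay above 0, and 7.65% were higher and 4.89% lower at that unadjusted p. CWC22, a spliceosomal protein that loads the exon junction complex, had 7.29 ± 0.895 in WT and 9.76 ± 0.937 in K29Q (n = 3 each, SD), with a log2 fold change of 0.38 (SE 0.10, adjusted p = 0.324). RBM5, a regulator of splice site pairing, had 5.46 ± 0.661 and 6.74 ± 0.299. DDX46, the helicase that remodels the U2 snRNP at the branch site, had 11.4 ± 2.34 and 14.6 ± 1.19, and its groups overlapped. The minor spliceosome, whose U12 particle contains SF3B as well, had 6 of 12 genes above 0 and 6 below, with a median of 0.0042 and 0 passing (limma, 1 higher and 1 lower at an unadjusted p under 0.05). CENATAC had 7.55 ± 0.202 and 6.19 ± 0.580, RNPC3, which bridges U11 and U12, had 1.43 ± 0.165 and 1.84 ± 0.0273, and SCNM1 had 6.35 ± 0.312 and 5.70 ± 0.215.

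Complexes tied to SF3B subunits outside splicing were described in the same way, beside 51% of all tested genes above 0. At an unadjusted p under 0.05 in limma, 7.65% of all tested genes were higher and 4.89% lower. Of 18 other SAGA genes 8 lay above 0 and 10 below, with a median of −0.0041 and 0 passing (limma, 1 higher and 0 lower at an unadjusted p under 0.05). SUPT20H had 1.96 ± 0.215 in WT and 2.41 ± 0.0346 in K29Q, SGF29 5.27 ± 0.499 and 4.48 ± 0.349, and TADA1 5.03 ± 0.393 and 5.60 ± 0.294 (n = 3 each, SD). PHF5A has been linked to the PAF1 complex, a partner of elongating RNA polymerase. Of its 6 genes 5 lay above 0 and 1 below, with a median of 0.16 and 0 passing (limma, 2 higher and 0 lower at an unadjusted p under 0.05). CTR9 had 20.4, 15.5 and 17.3 in WT 1 to 3 and 21.4, 20.8 and 22.7 in K29Q 1 to 3. LEO1 had 11.1, 8.30 and 9.20 in WT and 12.5, 10.2 and 13.1 in K29Q, and CDC73 had 7.81, 6.02 and 6.07 in WT and 7.84, 7.45 and 7.97 in K29Q. In all 3 genes WT 1 was the WT library nearest to K29Q, as for SF3B1. Among the genes named from the other lists, that also held for DDX46, CWC22, RBM5, RNPC3, SUPT20H and SIRT1, with higher means in K29Q. It held as well for SNRPA1, SF3A1, SCNM1, SGF29 and HDAC1, with lower means in K29Q. It did not hold for CENATAC, TADA1, SNRPE or EP300. Of the other subunits it held for SF3B2, SF3B4 and SF3B5, and not for PHF5A, SF3B3 or SF3B6. After GC and length correction the median of the 6 PAF1 complex genes was 0.095. In the uncorrected fit their median was 0.084 without WT 3, 0.10 without K29Q 3 and 0.23 without WT 1. Of 8 lysine acetyltransferases and deacetylases 6 lay above 0 and 2 below, with a median of 0.053 and 0 passing (limma, 0 at an unadjusted p under 0.05). The acetyltransferase EP300 had 9.81 ± 0.307 and 10.4 ± 0.591, the deacetylase HDAC1 86.5 ± 2.20 and 82.1 ± 1.49, and the sirtuin SIRT1 5.70 ± 1.22 and 6.86 ± 0.317.

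**Figure D5:**
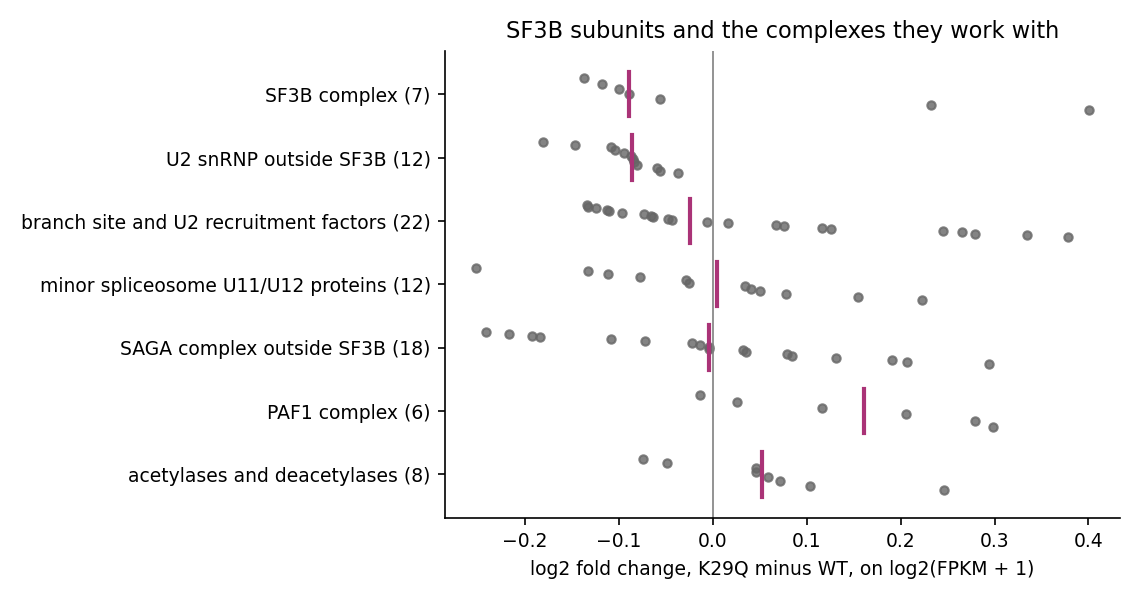
Log2 fold change of K29Q against WT for the SF3B subunits and for the genes of related complexes, with the number of genes tested in parentheses. Each point is a gene and each purple line the median of its list (−0.09 for SF3B, −0.09 for the other U2 snRNP genes and 0.16 for the PAF1 complex). PHF5A and SF3B1 are the 2 points of SF3B to the right of 0.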

How the data were processed

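Total RNA of 6 libraries was sequenced. The authors deposited 1 FPKM value for every gene in each of them, per the file headers. The submitters' processing notes name HISAT2 2.1.0, StringTie and the GRCh38 build. The sources used here do not give the StringTie version, annotation, filters or strand setting. There were 0 columns from other samples. FPKM hold no counts, so a linear model of log2(FPKM + 1) was used (limma 3.58.1, R 4.3.3), with an intensity trend and the group as the only term, over 13261 genes, with Benjamini-Hochberg adjustment and a threshold of 0.05. Single values were compared by exact permutation (scipy 1.17.1). The fit was checked on simulated data. GC content and length came from the longest protein-coding transcript in GENCODE 29 (13108 of the tested genes), and each library's trend was fitted with splines of 5 degrees of freedom. The genes named were the 7 subunits, rows related by name, the nearest tested start, the 3 genes most like PHF5A, and up to 3 genes of smallest p per list. Members, lists and rules were chosen with earlier results of these data known. All 115 list entries were found. One neighbouring gene and one sequence are not reported here.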

Additional observations from a re-analysis of the deposited data

How the results depend on the processing

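Each subunit was refitted under 16 alternatives. SF3B1, SF3B2, SF3B3, SF3B4 and SF3B5 kept their direction and did not pass in any of them. PHF5A lay between 0.37 and 0.44 and passed with GC and length correction alone (0.44, limma, adjusted p = 0.0168), so 1 subunit passed there and 0 elsewhere. Without the correction its adjusted p was 0.0722 to 0.409 when 1 library was left out, and libraries were not left out of the corrected fit. SF3B6 ran from −0.11 to 0.0056 when 1 library was left out and was above 0 without K29Q 1. The PHF5A ratio to its partners lay between 0.38 and 0.50 on the log2 scale under 10 alternatives. The number of genes past the threshold over the whole table, 7 in the fit reported, was 13 with quantile normalization, 2 with no filter, 4 with a run term, 80 with GC and length correction, and 5 to 20 when 1 library was left out, with 20 without WT 1 and 12 without K29Q 1. With the replicate number as a block it was 3, and 1 with the block and the GC correction together. The block left every subunit short of the threshold. Libraries of the same number did not all deviate together (correlations of −0.14, 0.18 and −0.16 across genes for numbers 1, 2 and 3). Number 2 alone correlated best with its own, so the numbers were not taken as pairs. WT 1 correlated best with K29Q 3 (0.21) and WT 3 with K29Q 1 (0.25), and a block on these pairs was not fitted. The cause of these differences was not tested. The depth per library is unknown, and 3 libraries a group limit what the test can call.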
